A study of Mus musculus with 14 samples.

Results

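Hearts of mouse embryos that lacked Irx5 were set directly against hearts that lacked Irx3. The Irx5-/- group had 3 arrays, and the Irx3-/-;Irx5+/- group had 4, so the comparison drew on 7 of the 14 arrays of the series, and all 21776 probe sets with exactly 1 gene symbol entered it. All hearts were taken at E12.5, a stage counted in days of embryonic development, and each array measured RNA of whole hearts on an Affymetrix Mouse Gene 1.0 ST chip. Groups were read from the sample titles. For the Irx5-/- hearts the labels name no Irx3 allele. The Irx3-/-;Irx5+/- hearts had no working copy of Irx3 and, by their genotype, 1 altered copy of Irx5, and they are also called Irx3 null here. The groups therefore differed at both genes, and each gene's difference is that of Irx5-/- minus Irx3-/-;Irx5+/-. The sources used here do not give the design of either null allele, the strain of the embryos or their sex. Nor is it stated that the arrays came from separate embryos. A p-value therefore reflects the spread among these 7 arrays alone, which may be technical in part. Sex-linked genes, given below, showed both sexes among the arrays of each group.

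Irx3 and Irx5 belong to the Iroquois family, homeodomain transcription factors that lie in clusters in the genome. Irx3, Irx5 and Irx6 are neighbours on mouse chromosome 8, and Irx1, Irx2 and Irx4 form the other cluster on chromosome 13. In the heart, Irx4 marks ventricular muscle, Irx3 is known for its part in the fast-conducting His-Purkinje system, and Irx5 for shaping the gradient of repolarization across the ventricular wall. Both are also expressed in the endocardium, the endothelial lining of the heart chambers, from which the cushions and valves grow.

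The probe sets were tested with limma, and the threshold for a call was an adjusted p (Benjamini-Hochberg) below 0.05. None was called, which is 0% of those tested, and the smallest adjusted p was 0.538. At an unadjusted p under 0.05 there were 777 probe sets higher in Irx5-/- hearts (3.57%) and 697 lower (3.2%), together 1474. No single-gene difference below therefore passed the test, and the words higher and lower describe the position of the groups. A second description counts genes whose arrays do not overlap, that is, where every Irx5-/- array lies on the same side of every Irx3-/-;Irx5+/- array. Such genes are called wholly higher or wholly lower. Of 19931 genes, each represented by its brightest probe set, 642 lay wholly higher in Irx5-/- hearts (3.22%) and 1080 wholly lower (5.42%). The median log2 difference over all genes was -0.02, and 45.4% of genes were above 0. These shares are the background against which the gene lists are read.

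Genes of the endothelium and endocardium were lower in Irx5-/- hearts and genes of mitosis and DNA replication were higher, while sarcomere genes were centred near 0. The 35 endothelial and endocardial genes had a median log2 difference of -0.34, and 31 of them were below 0. The 23 genes of G2 and mitosis had a median of 0.29, and 22 were above 0. For the 32 sarcomere genes the median was -0.02, with 14 above and 18 below 0.

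**Figure D1:**
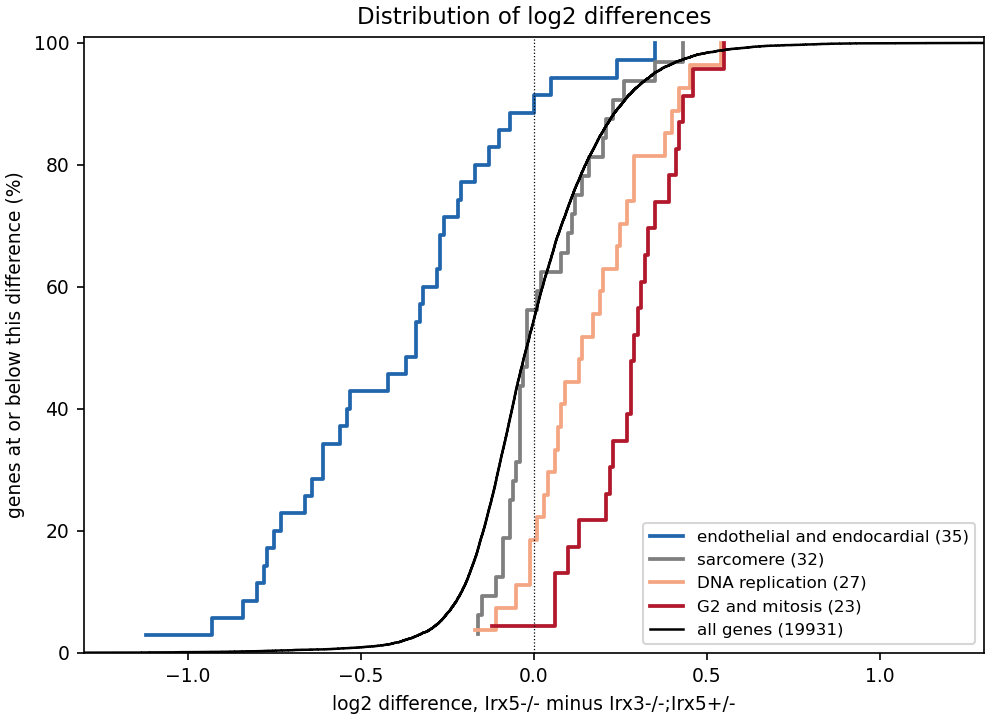
Cumulative share of genes (vertical axis, percent) at or below each log2 difference (horizontal axis, Irx5-/- minus Irx3-/-;Irx5+/-) for 4 gene lists and all 19931 genes, with the number of genes in brackets. The endothelial and endocardial curve lies left of all genes with a median of -0.34, the G2 and mitosis curve lies right with a median of 0.29, and sarcomere genes follow all genes at -0.02.

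Irx3 itself had log2 intensities of 8.25, 8.14 and 8.19 on the Irx5-/- arrays, against 7.87, 7.89, 7.93 and 8.17 on the Irx3-/-;Irx5+/- arrays. Replicates 1 to 3 of the Irx3 null group lay below every Irx5-/- array, and replicate 4 lay among them. The means were 8.19 ± 0.06 in Irx5-/- hearts (SD, n = 3) and 7.97 ± 0.14 in Irx3 null hearts (SD, n = 4), a log2 difference of 0.23 ± 0.10 (SE; adjusted p = 0.733). That array is titled and characterised as Irx3-/-;Irx5+/-, while its description field names Irx5-/-. It was kept by its title, and without it the Irx3 difference was 0.30 ± 0.10.

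Irx5 had log2 intensities of 7.86, 8.34 and 7.91 on the Irx5-/- arrays, against 8.31, 8.21, 8.21 and 8.31 on the Irx3-/-;Irx5+/- arrays. Replicates 1 and 3 of Irx5-/- lay below the other group, and replicate 2 was the highest of all 7. The log2 difference was -0.22 ± 0.13 (adjusted p = 0.741), and without the array labelled Irx5-/- replicate 2 it was -0.38 ± 0.10. The sources used here do not say where these probe sets lie relative to the altered part of each allele, so neither gene tests the label of an array. Several results below are therefore also given without these arrays, while many single genes are given over all 7 arrays only.

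Irx6, the third gene of that cluster, was lower on all Irx5-/- arrays, at 7.55, 7.30 and 7.56 against 7.80, 8.13, 7.60 and 7.79 in Irx3 null hearts. Its log2 difference was -0.36 ± 0.14 (unadjusted p = 0.0338, adjusted p = 0.731). Irx1, Irx2 and Irx4 had differences of 0.09 ± 0.10, -0.13 ± 0.11 and 0.15 ± 0.27, all with overlapping groups. The Irx4 value rested on the array labelled Irx5-/- replicate 2, at 9.48 against 8.15 and 8.55 on the others of its group, and without that array it was -0.23.

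Genes near Irx3, Irx5 and Irx6 on chromosome 8 were listed separately. Of 27 measured, 2 were wholly lower in Irx5-/- hearts, which is 7.41% against the background of 5.42%, and the median was 0.09. Crnde, a long noncoding RNA gene beside Irx5, had log2 intensities of 7.17, 7.46 and 7.67 in Irx5-/- hearts, against 8.35, 7.92, 9.08 and 8.16 in Irx3 null hearts. The difference of -0.94 ± 0.27 (unadjusted p = 0.00752, adjusted p = 0.713) was the widest of that neighbourhood. The other was Slc12a3, a sodium chloride transporter of the kidney, at -0.24 ± 0.11. Sall1, a zinc finger transcription factor, was at -0.78 ± 0.24 with groups that overlapped through the array labelled Irx5-/- replicate 2, at 9.88. Fto, the neighbour of Irx3 that encodes an RNA demethylase, was at 0.26 ± 0.12, and its groups overlapped.

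Of the 15 genes known from work on Irx3 or Irx5 in the heart, Bmp10 differed most. Bmp10 is a BMP-family ligand made by the trabecular muscle of the embryonic heart, where it maintains muscle growth. Its log2 intensities were 5.82, 6.38 and 5.94 in Irx5-/- hearts, against 7.75, 7.32, 6.82 and 6.38 in Irx3-/-;Irx5+/- hearts. Replicate 4 of the Irx3 null group met the highest Irx5-/- array at 6.38, and the other 3 lay above all Irx5-/- arrays. The mean was 6.05 ± 0.30 in Irx5-/- hearts and 7.07 ± 0.59 in Irx3 null hearts, a log2 difference of -1.02 ± 0.31 (unadjusted p = 0.011, adjusted p = 0.713). All 3 Irx5-/- values and replicates 3 and 4 of the Irx3 null group lay below 7.02, the mean level under which the dimmest 25% of probe sets fell. Signal above background was therefore not shown on those arrays, and no fold is given. Without Irx3-/-;Irx5+/- replicate 4 the difference was -1.25 ± 0.26.

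Of the 15, only Kcnd3 was wholly separated, which is 6.67% against the background of 5.42%. Without the array labelled Irx5-/- replicate 2, 5 of the 15 were wholly lower (33.3% against 10.1%) and 2 wholly higher (13.3% against 7.74%). Of the 4 gap junction genes in the list 3 were above 0 and 1 below, with groups that overlapped in all 4. Among them were Gja5 (connexin 40 of atria and the conduction system) at 0.26 ± 0.28 and Gja1 (connexin 43 of working muscle) at 0.23 ± 0.35. Without that array they were at -0.05 and -0.23. Among potassium channel genes, Kcnd3 was lower in Irx5-/- hearts at -0.15 ± 0.10, and Kcnd2, whose channel carries the transient outward current that Irx5 is known to shape in adult muscle, was at -0.24 ± 0.16 with overlapping groups, and at -0.43 without the array labelled Irx5-/- replicate 2. Hcn4, the pacemaker channel gene, was at 0.05 ± 0.09. The natriuretic peptide genes Nppa and Nppb varied widely within each group. Nppa ran from 8.86 to 11.37 in Irx5-/- hearts and from 9.98 to 11.78 in Irx3 null hearts, and its difference was -0.69 ± 0.64. Nppb was at 0.38 ± 0.64. Without the array labelled Irx5-/- replicate 2, Nppa was at -1.43 and Nppb at -0.42.

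**Figure D2:**
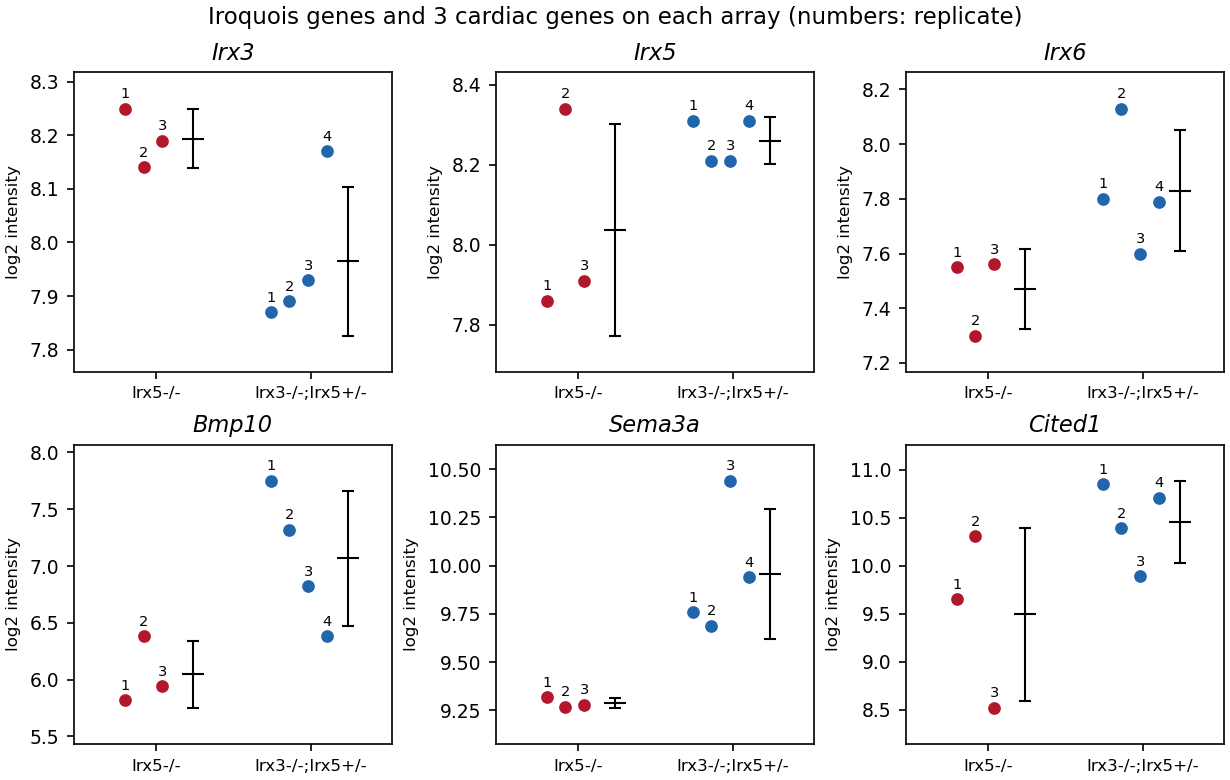
Log2 intensity (vertical axes, each with its own range) of 6 genes on each array, with Irx5-/- on the left and Irx3-/-;Irx5+/- on the right, points numbered by replicate, and the mean with its SD at the side. Replicate 4 of Irx3-/-;Irx5+/- lies at 8.17 for Irx3 and 6.38 for Bmp10, within the range of Irx5-/-, and replicate 2 of Irx5-/- is the highest array for Irx5, at 8.34.

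In the list of trabecular muscle genes, measured here in whole hearts, Sema3a and Cited1 had lower means in Irx5-/- hearts beside Bmp10. Over all arrays the list had as many genes above 0 as below, 7 each of 14. Its median was 0.03, and -0.12 without the array labelled Irx5-/- replicate 2. Of the 14 genes 1 was wholly lower (7.14% against 5.42%), and 4 without that array (28.6% against 10.1%). Sema3a, a secreted guidance cue needed for patterning cardiac nerves, had log2 intensities of 9.32, 9.27 and 9.28 in Irx5-/- hearts, against 9.76, 9.69, 10.44 and 9.94 in Irx3 null hearts. The groups did not overlap, and the Irx5-/- arrays lay close to each other. The difference was -0.67 ± 0.18 (unadjusted p = 0.0056, adjusted p = 0.713). Cited1, a transcriptional coactivator of trabecular muscle, was at 9.65, 10.31 and 8.52 in Irx5-/- hearts, against 10.85, 10.39, 9.89 and 10.71 in Irx3 null hearts. Its groups overlapped, and the difference of -0.96 ± 0.41 moved between -1.37 and -0.48 when single arrays were left out, to -1.37 without the array labelled Irx5-/- replicate 2.

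Tbx20, a T-box factor needed for growth of chamber muscle and for cushion development, was wholly higher in Irx5-/- hearts. It measured 10.99, 11.06 and 10.74 there, against 10.31, 10.50, 10.14 and 10.69 in Irx3-/-;Irx5+/- hearts, a difference of 0.52 ± 0.15 (unadjusted p = 0.00863, adjusted p = 0.713). Nr2f2 (COUP-TFII), which sets atrial identity and is also expressed in veins, was wholly lower, at -0.33 ± 0.12. Of the 28 cardiac transcription factor genes these were the only members whose groups did not overlap, 1 in each direction (3.57% each). The backgrounds were 3.22% higher and 5.42% lower. Without the array labelled Irx5-/- replicate 2 such members numbered 3 in each direction (10.7%), beside backgrounds of 7.74% higher and 10.1% lower. Nkx2-5 and Gata4, which are shared by the whole cardiac muscle lineage, were at -0.03 ± 0.13 and 0.12 ± 0.15.

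Structural muscle genes showed no wholly separated member in either direction among 32 sarcomere genes, and 6 wholly lower without the array labelled Irx5-/- replicate 2 (18.8% against 10.1%). Myl2, the ventricular regulatory light chain, averaged 13.35 ± 0.15 in Irx5-/- hearts and 13.44 ± 0.10 in Irx3 null hearts. Its difference was -0.09 ± 0.11, with Myh6 at -0.03 ± 0.31 and Acta1 at 0.43 ± 0.25. The mean of the sarcomere list differed more between arrays of the same genotype than between genotypes. It was 10.87, 11.92 and 10.78 on the Irx5-/- arrays, against 11.46, 11.16, 10.69 and 11.31 on the Irx3-/-;Irx5+/- arrays. The array labelled Irx5-/- replicate 2 was highest of all 7, and without it the list's median turned to -0.30. Without Irx5-/- replicate 3 it was 0.21.

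The same array stood apart in other lists. Its list means were also the highest of all 7 for oxidative phosphorylation (12.03), glycolysis and hypoxia (10.73) and macrophages (7.84), and the lowest for epicardium (8.23) and cushion mesenchyme (9.26). The medians of the energy lists changed sign without it. Oxidative phosphorylation had a median of 0.10 over 29 genes, and -0.15 without that array. Fatty acid oxidation was at 0.16 over 23 genes and -0.11 without the array. Glycolysis and hypoxia were at 0.21 over 26 genes and -0.06 without it. None of these 3 lists had a member whose groups did not overlap. The part that such shifts in muscle, epicardial and cushion genes had in any single gene's value was not tested.

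**Figure D3:**
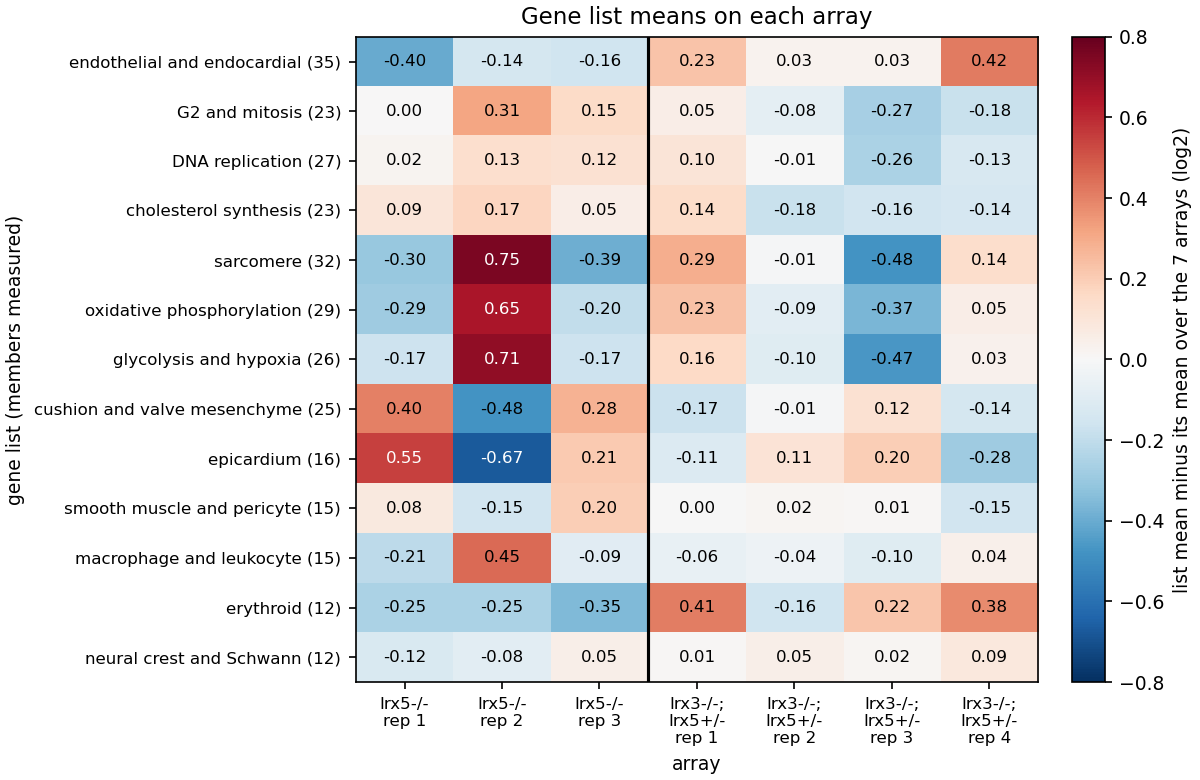
Mean log2 intensity of 13 gene lists on each array, less the mean of that list over the 7 arrays (colour and printed value), with Irx5-/- arrays left of the line and Irx3-/-;Irx5+/- arrays right of it. Endothelial and endocardial genes lie lower on all 3 Irx5-/- arrays than on any Irx3-/-;Irx5+/- array, while sarcomere and energy lists are highest on Irx5-/- replicate 2.

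Endothelial and endocardial genes had the lowest median of all gene lists described. Their list mean was 9.38, 9.64 and 9.62 on the Irx5-/- arrays, against 10.01, 9.81, 9.81 and 10.20 on the Irx3-/-;Irx5+/- arrays, so the groups did not overlap. Of the 35 genes, 16 were wholly lower in Irx5-/- hearts, which is 45.7% against the background of 5.42%, and 19 had an unadjusted p under 0.05 in that direction, against 3.17% of all genes. None was wholly higher. Genes of a list share the arrays and their cells, so they are not independent of each other, and the counts carry no p. In RNA of whole hearts, fewer cells of a type and less RNA per cell cannot be told apart.

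The list median stayed below 0 under all 18 alternatives, between -0.48 and -0.30. It was -0.30 without Irx3-/-;Irx5+/- replicate 4, with 16 members at an unadjusted p under 0.05, and -0.38 without the array labelled Irx5-/- replicate 2, with 15. Replicate 4 had the highest endothelial mean of its group, at 10.20. With 3 arrays against 3 more genes separate by construction, and the background of wholly lower genes was then 6.91% without replicate 4, beside 16 of the 35, and 10.1% without Irx5-/- replicate 2, beside 18 of the 35. In each case 1 member was wholly higher.

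Receptors of the endothelial surface made up 7 of the 16. Npr3, the natriuretic peptide clearance receptor and a marker of endocardium, had log2 intensities of 10.93, 11.44 and 11.23 in Irx5-/- hearts, against 12.03, 11.93, 12.17 and 12.37 in Irx3-/-;Irx5+/- hearts. The highest Irx5-/- array, at 11.44, lay below the lowest Irx3 null array, at 11.93. The mean was 11.20 ± 0.26 in Irx5-/- hearts and 12.12 ± 0.19 in Irx3 null hearts, a difference of -0.93 ± 0.15 or 0.526-fold (unadjusted p = 0.000324, adjusted p = 0.538). Tie1, an angiopoietin co-receptor, was at 9.41, 9.74 and 9.53 in Irx5-/- hearts, against 10.48, 10.05, 10.28 and 10.64, a difference of -0.80 ± 0.16 (adjusted p = 0.538).

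Tek, the angiopoietin receptor that partners Tie1, was at -0.61 ± 0.20. Flt1, a receptor that traps VEGF, was at -0.75 ± 0.23. Eng and Acvrl1, the endoglin and ALK1 receptors for BMP9 and BMP10 on endothelium, were at -0.61 ± 0.14 and -0.27 ± 0.10, and Ramp2, which pairs with the adrenomedullin receptor Calcrl, at -0.54 ± 0.17. In all 5 the groups did not overlap. The VEGF receptors Kdr and Flt4 lay closer to 0, at -0.26 ± 0.19 and -0.21 ± 0.18, with overlapping groups. Aplnr, the apelin receptor, went the other way at 0.35 ± 0.25, also with overlap.

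Junction and surface proteins supplied 7 more. Emcn (endomucin), a sialomucin of venous and endocardial surfaces, had log2 intensities of 9.57, 10.97 and 10.76 in Irx5-/- hearts, against 11.84, 11.28, 11.30 and 11.79 in Irx3 null hearts. Its difference of -1.12 ± 0.33 (0.459-fold, unadjusted p = 0.00955, adjusted p = 0.713) was the widest of the list, and it was -1.39 without the array labelled Irx5-/- replicate 2. Cdh5 (VE-cadherin) was at 10.66, 11.33 and 11.17 in Irx5-/- hearts, against 11.88, 11.52, 11.66 and 12.08, a difference of -0.73 ± 0.19. Pecam1, the adhesion molecule CD31, was at 10.11, 10.27 and 10.21 in Irx5-/- hearts, against 10.88, 10.67, 10.51 and 10.98, a difference of -0.56 ± 0.13. Irx5-/- replicate 1 was the lowest of all 7 arrays for these 3 genes.

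Plvap, which forms the diaphragms of endothelial fenestrae, was at -0.84 ± 0.18, Ecscr, an endothelial cell surface regulator of chemotaxis, at -0.64 ± 0.12, Egfl7, a secreted endothelial factor, at -0.53 ± 0.14, and Mmrn2, an endothelial matrix protein, at -0.77 ± 0.22. The 3 exceptions to the direction besides Aplnr were Cd34 at 0.24 ± 0.27, the transcription factor Sox17 at 0.05 ± 0.16 and the tight junction gene Cldn5 at 0.00 ± 0.14. Of the 10 transcription factors, 2 were wholly lower, beside a background of 5.42%. These were Ets1 at -0.28 ± 0.10 and Tal1, needed for endocardial development, at -0.34 ± 0.12. Sox7 had the widest difference of the factors at -0.78 ± 0.25 (unadjusted p = 0.0142), with groups that overlapped.

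**Figure D4:**
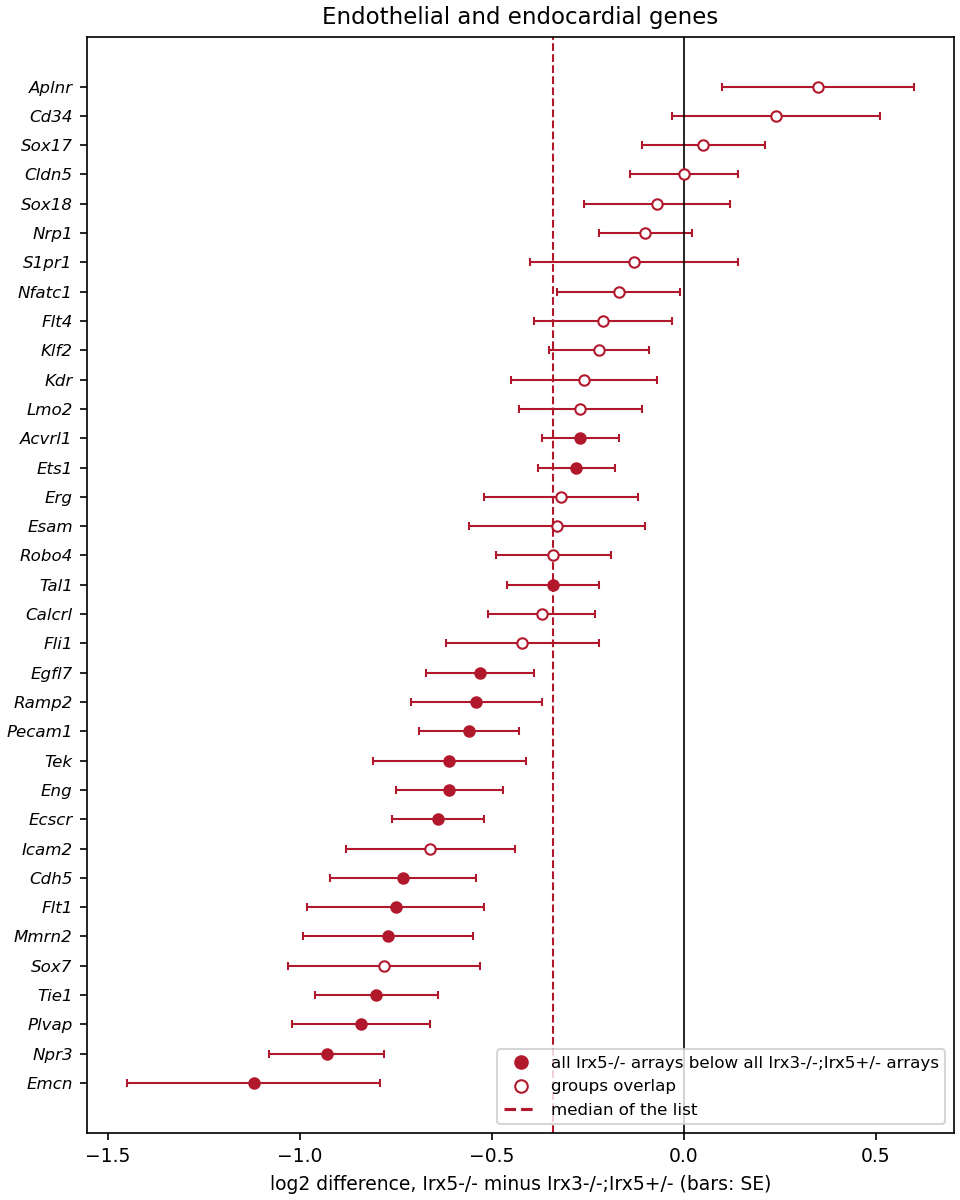
Log2 difference (horizontal axis, Irx5-/- minus Irx3-/-;Irx5+/-, with SE) of the 35 endothelial and endocardial genes. Filled points are the 16 genes whose Irx5-/- arrays all lie below the Irx3-/-;Irx5+/- arrays, open points are genes with overlap, and the dashed line is the list's median of -0.34.

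The promoters of Tie1 and Emcn are shown because these genes stand among the widest differences of the list and because endothelial promoters are known for ETS factor sites. Each is the 250 bases before the gene's start in RefSeq's annotation of GRCm38.p6, read 5′ to 3′ on the gene's own strand, with motif matches in capitals.
Tie1, chr4:118489850-118490099, minus strand: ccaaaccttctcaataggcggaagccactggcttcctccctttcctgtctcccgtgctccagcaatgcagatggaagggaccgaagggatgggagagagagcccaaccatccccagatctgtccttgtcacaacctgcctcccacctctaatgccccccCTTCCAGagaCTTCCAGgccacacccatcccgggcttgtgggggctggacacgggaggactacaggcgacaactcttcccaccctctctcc
Emcn, chr3:137340828-137341077, plus strand: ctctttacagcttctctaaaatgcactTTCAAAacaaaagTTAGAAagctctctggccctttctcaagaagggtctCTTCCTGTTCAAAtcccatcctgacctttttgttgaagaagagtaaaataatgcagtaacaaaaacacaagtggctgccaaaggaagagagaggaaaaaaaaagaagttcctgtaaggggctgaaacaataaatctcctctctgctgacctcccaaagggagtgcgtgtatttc
Capitals mark 4 motifs searched on both strands: CNGGAAG for ETS factors, ACANNTGT, which Iroquois proteins bind in Drosophila, TTNGAA for the cell cycle homology region and CCAAT for NF-Y. No matches of different motifs overlapped. Tie1 held 2 ETS matches, and Emcn held 1 with 3 matches to TTNGAA. The promoter of Npr3, whose difference was wider than that of Tie1, is not printed. Cut the same way, it held no ETS and no Iroquois match, with 1 CCAAT and 1 TTNGAA match. An ETS match stood in 26.6% of all 32851 promoters in the table and an Iroquois match in 6.31%, and neither promoter shown held an Iroquois match. A match is a run of letters, not a measured site.

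In 2 signalling lists some members were wholly lower while the list as a whole was centred near 0 over all 7 arrays. The 24 semaphorin and plexin genes had a median of -0.02, with 12 above and 12 below 0, and 4 were wholly lower (16.7% against 5.42%). Without the array labelled Irx5-/- replicate 2 the median of this list was 0.15. Plxnc1, a semaphorin receptor, had log2 intensities of 8.95, 9.57 and 9.10 in Irx5-/- hearts, against 10.06, 9.78, 10.39 and 10.20 in Irx3-/-;Irx5+/- hearts, a difference of -0.90 ± 0.19. Plxnd1, the endothelial receptor of class 3 semaphorins, was at -0.69 ± 0.19, and Sema4d at -0.59 ± 0.13 by its brighter probe set and -0.12 by the other. The fourth was Sema3a, described above.

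The 24 Notch and neuregulin genes had a median of 0.00, 12 members on each side of 0 and also 4 wholly lower members (16.7%). Of the 8 receptors in that list 6 were above 0. Notch4, the endothelial Notch receptor, was at 8.36, 8.33 and 8.51 in Irx5-/- hearts, against 8.76, 8.75, 8.83 and 8.87, a difference of -0.40 ± 0.09. Nrg1, the neuregulin ligand through which endocardium signals to trabecular muscle, was at -0.29 ± 0.11, Dll1, a Notch ligand, at -0.46 ± 0.19, and Ephb4, the ephrin receptor of venous endothelium, at -0.21 ± 0.11. Among 39 BMP and TGF-beta genes 3 were wholly lower (7.69%) and 2 wholly higher (5.13% against 3.22%). Without the array labelled Irx5-/- replicate 2, 5 were wholly lower (12.8% against 10.1%) and 10 wholly higher (25.6% against 7.74%). The 3 lower members over all arrays were receptors. Besides Eng and Acvrl1 the third was Tgfbr3 (betaglycan), a co-receptor for TGF-beta2 in cushion formation, which measured 9.32, 10.03 and 9.79 in Irx5-/- hearts, against 10.83, 10.29, 10.69 and 10.65, a difference of -0.90 ± 0.19. The wholly higher members were Inhba, the activin A subunit, at 0.55 ± 0.16, and Smad4, the shared mediator of the pathway, at 0.20 ± 0.09.

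Basement membrane and matrix genes were separated only in single members. Of 45 matrix genes, 2 were wholly lower (4.44%, near the background), Col4a1 of the vascular basement membrane at -0.35 ± 0.11 and Fn1 (fibronectin) at -0.33 ± 0.12. The list's median was 0.02. Leaving out the array labelled Irx5-/- replicate 2 gave 9 wholly higher members (20% against 7.74%). Lama2, a muscle laminin chain, was at 0.58 ± 0.22, and Vcan, the cushion proteoglycan versican, at 0.41 ± 0.17, both with overlap. Hmcn1 (hemicentin 1) is covered by 77 probe sets, of which 72 were lower and 5 higher, in a range of -0.79 to 0.23. Only 5 were wholly separated, all lower, and the brightest was at -0.10 ± 0.09. Caveola genes had a median of -0.05 over 10 genes, with Cav1 at -0.30 ± 0.15 and Cavin2 at -0.45 ± 0.17, both expressed in endothelium and both overlapping.

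Blood cell genes also differed in part, in RNA of hearts that can hold circulating cells. Hba-x, the embryonic zeta globin gene, had log2 intensities of 7.47, 7.41 and 7.32 in Irx5-/- hearts, against 10.32, 7.87, 9.85 and 9.63 in Irx3-/-;Irx5+/- hearts. Its difference was -2.02 ± 0.51, or 0.247-fold (unadjusted p = 0.00407, adjusted p = 0.713). Replicate 2 of the Irx3 null group lay near the Irx5-/- arrays and the other 3 lay far above. Globin genes are near-identical copies in part, so their probe sets may share signal. Hbb-y, the embryonic epsilon globin gene, followed with 8.99, 6.79 and 6.88 in Irx5-/- hearts, against 11.83, 7.87, 11.95 and 11.84, a difference of -3.32 ± 1.05 with overlap. Slc4a1, the red cell anion exchanger, was wholly lower by a smaller step, at -0.31 ± 0.12.

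The list of 12 erythroid genes had a median of -0.14, 2 wholly lower members (16.7% against 5.42%) and list means of 7.60, 7.60 and 7.50 on the Irx5-/- arrays, against 8.26, 7.69, 8.07 and 8.23 on the Irx3-/-;Irx5+/- arrays. Its 9 genes other than globins had a median of -0.05. Platelet genes had a median of -0.17 over 6 genes with no separated member, and Pf4 stood at 10.69 on Irx3-/-;Irx5+/- replicate 2 against 5.98 to 7.61 on the other 6 arrays. Macrophage genes had a median of 0.09 over 15 genes, and C1qb, a complement gene, was at 0.29 ± 0.22. How far retained blood contributed to the endothelial difference was not tested.

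The lists of tissues next to the endothelium depended on single Irx5-/- arrays. The 25 cushion and valve genes had a median of 0.14 and 1 wholly separated member in each direction (4%). That is near the backgrounds of 3.22% higher and 5.42% lower. Their list means lay between 9.26 and 10.14 in Irx5-/- hearts and between 9.57 and 9.86 in Irx3 null hearts. The 16 epicardial genes had a median of -0.03 and no wholly separated member. Without the array labelled Irx5-/- replicate 2, the cushion median was 0.25 with 10 genes wholly higher (40% against 7.74%), and the epicardial median was 0.38 with 4 wholly higher (25%). Without Irx5-/- replicate 1 the medians were -0.09 and -0.28. Of the 15 smooth muscle and pericyte genes, Tagln (transgelin, an actin-binding protein of smooth and early cardiac muscle) was wholly higher, at 10.76, 10.38 and 10.76 in Irx5-/- hearts, against 9.91, 9.96, 9.92 and 9.71 in Irx3-/-;Irx5+/- hearts. Its difference was 0.76 ± 0.13 (unadjusted p = 0.000329, adjusted p = 0.538). Itga8, the integrin alpha 8 chain, was wholly lower at -0.78 ± 0.19. They were the only wholly separated members of the 15, 1 in each direction, beside backgrounds of 3.22% higher and 5.42% lower.

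Of 12 neural crest and Schwann genes, 2 were wholly lower (16.7% against 5.42%), Fabp7 at -0.71 ± 0.15 and Ednrb, an endothelin receptor that endothelium expresses as well, at -0.63 ± 0.27. Leaving out the array labelled Irx5-/- replicate 2 gave 4 wholly lower members (33.3% against 10.1%). The defining factors Sox10 and Foxd3 were at -0.15 ± 0.09 and 0.05 ± 0.11. Genes of liver and of lung and foregut served as markers of neighbouring organs. All 9 liver genes and all 10 lung and foregut genes were below 0, with medians of -0.10 and -0.14, and 1 member of each list was wholly lower, Apoa1 at -0.21 ± 0.11 (11.1% against 5.42%) and Cldn6 at -0.12 ± 0.08 (10%). The albumin gene Alb and the surfactant gene Sftpc overlapped between the groups, with Alb at 6.18 ± 0.08 in Irx5-/- hearts and 6.22 ± 0.11 in Irx3 null hearts, and Sftpc at 6.29 ± 0.18 in Irx5-/- hearts and 6.31 ± 0.08 in Irx3 null hearts. The liver list had a mean of 7.17 in Irx5-/- hearts and 7.29 in Irx3 null hearts, and the lung and foregut list 6.98 and 7.11. These means lay near 7.02, under which the dimmest 25% of probe sets fell. Signal above background was therefore not shown for these 2 lists as a whole. The part of neighbouring tissue in any difference was not tested.

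Genes of cell division were higher in Irx5-/- hearts by small steps. Of 23 genes of G2 and mitosis, 7 were wholly higher, 30.4% against the background of 3.22%, and 8 had an unadjusted p under 0.05, against 3.47% of all genes. Of 27 DNA replication genes 22 were above 0 and 6 were wholly higher (22.2%), with a median of 0.14. The list means of G2 and mitosis were 10.05, 10.36 and 10.20 on the Irx5-/- arrays, against 10.10, 9.97, 9.78 and 9.87 on the Irx3-/-;Irx5+/- arrays, so Irx3-/-;Irx5+/- replicate 1 reached the range of Irx5-/-. The medians stayed above 0 under all 18 alternatives, between 0.20 and 0.35 for mitosis and between 0.06 and 0.22 for replication. The number of mitosis genes with an unadjusted p under 0.05 was 5 without Irx3-/-;Irx5+/- replicate 4 and 4 without the array labelled Irx5-/- replicate 2, and 7 were wholly higher in each case, beside backgrounds of 5.17% and 7.74%.

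Mki67, the gene of the proliferation marker Ki-67, had log2 intensities of 10.40, 10.47 and 10.38 in Irx5-/- hearts, against 10.05, 10.04, 10.16 and 10.02 in Irx3-/-;Irx5+/- hearts. The groups did not overlap, and the arrays of each lay close together. The mean was 10.42 ± 0.05 in Irx5-/- hearts and 10.07 ± 0.06 in Irx3 null hearts, a difference of 0.35 ± 0.08 or 1.28-fold (unadjusted p = 0.00318, adjusted p = 0.699). Top2a, the topoisomerase that untangles chromosomes before division, was at 11.33, 11.47 and 11.53 in Irx5-/- hearts, against 11.11, 11.09, 10.80 and 11.03, a difference of 0.43 ± 0.11 by its brighter probe set and 0.02 by the other.

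The other wholly higher mitosis genes were the kinetochore genes Cenpe (0.41 ± 0.12), Cenpf (0.42 ± 0.14) and Bub1 (0.30 ± 0.11), the spindle midzone gene Prc1 (0.46 ± 0.15) and Tacc3 (0.21 ± 0.12). In DNA replication, Rrm1, a subunit of ribonucleotide reductase, was at 10.95, 11.02 and 10.93 in Irx5-/- hearts, against 10.64, 10.51, 10.12 and 10.43, a difference of 0.54 ± 0.13 (unadjusted p = 0.00333, adjusted p = 0.711). Mcm7 and Cdc45 of the replicative helicase, the related gene Mcm8, the flap nuclease gene Fen1 and Uhrf1, which acts in the copying of DNA methylation, were wholly higher at 0.27 to 0.45. Mcm2, a core helicase subunit, was at 0.03 ± 0.17.

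Regulators of the G1 phase had a median of -0.01 over 18 genes, with 3 wholly higher (16.7% against 3.22%) and 1 wholly lower (5.56% against 5.42%). Cdkn1c (p57), the inhibitor that marks cells leaving the cycle, was at 12.06, 12.07 and 12.19 in Irx5-/- hearts, against 12.47, 12.30, 12.61 and 12.65, wholly lower at -0.40 ± 0.11. Cdkn1b (p27), another inhibitor of the same family, lay on the opposite side at 0.40 ± 0.14, wholly higher, with 0.19 by its dimmer probe set. Cdk6, a kinase of G1, was wholly higher at 0.36 ± 0.17, and so was the inhibitor gene Cdkn2a at 0.10 ± 0.09. The D cyclins Ccnd1, Ccnd2 and Ccnd3 were at -0.13 ± 0.15, -0.27 ± 0.16 and -0.08 ± 0.08.

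**Figure D5:**
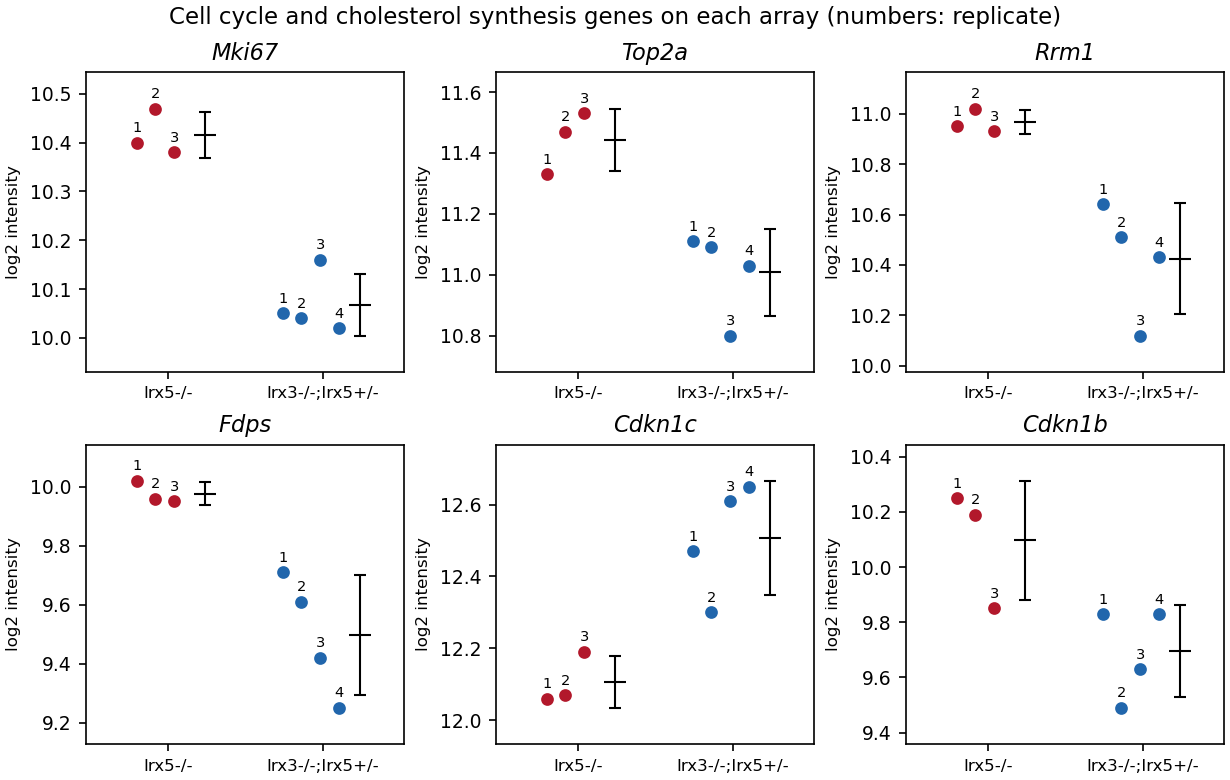
Log2 intensity (vertical axes, each with its own range) of 5 cell cycle genes and of Fdps from cholesterol synthesis on each array, with Irx5-/- on the left and Irx3-/-;Irx5+/- on the right, points numbered by replicate and means with SD. All 6 are separated between the groups, Cdkn1c downwards by -0.40 and the others upwards by 0.35 to 0.54.

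The promoters of Mki67 and Top2a are shown as 2 mitosis genes that lay higher together, cut and marked as above. Promoters of G2 and mitosis genes are known for the paired CCAAT box and cell cycle homology region.
Mki67, chr7:135716380-135716629, minus strand: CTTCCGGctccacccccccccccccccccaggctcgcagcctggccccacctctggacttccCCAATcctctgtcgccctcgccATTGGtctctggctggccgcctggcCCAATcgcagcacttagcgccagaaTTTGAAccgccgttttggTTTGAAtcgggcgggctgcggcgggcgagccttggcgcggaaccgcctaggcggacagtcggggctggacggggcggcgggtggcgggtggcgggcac
Top2a, chr11:99024190-99024439, minus strand: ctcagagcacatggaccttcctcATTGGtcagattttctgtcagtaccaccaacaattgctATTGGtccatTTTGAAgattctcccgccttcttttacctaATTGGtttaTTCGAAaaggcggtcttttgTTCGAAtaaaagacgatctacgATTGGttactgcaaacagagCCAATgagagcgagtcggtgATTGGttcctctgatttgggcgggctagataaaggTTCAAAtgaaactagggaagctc
Mki67 held 3 CCAAT and 2 TTNGAA matches with 1 ETS match, and Top2a held 6 CCAAT and 4 TTNGAA matches with no ETS match. A CCAAT match stood in 33.8% of all promoters in the table and a TTNGAA match in 36.4%. The promoter of Bmp10, the cardiac gene with the widest difference among those linked to Irx3 or Irx5, is given for comparison.
Bmp10, chr6:87428744-87428993, plus strand: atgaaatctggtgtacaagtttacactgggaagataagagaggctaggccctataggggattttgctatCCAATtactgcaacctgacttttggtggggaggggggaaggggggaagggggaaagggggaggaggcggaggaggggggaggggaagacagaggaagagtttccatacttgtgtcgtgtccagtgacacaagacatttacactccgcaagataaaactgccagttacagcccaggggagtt
It held 1 CCAAT match and none of the other motifs. None of these 5 promoters held ACANNTGT in this window.

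Genes of cholesterol synthesis were mostly above 0 in Irx5-/- hearts. Of 23 genes 20 were above 0, 4 were wholly higher (17.4% against 3.22%) and the median was 0.13. Fdps, which makes farnesyl pyrophosphate, was at 10.02, 9.96 and 9.95 in Irx5-/- hearts, against 9.71, 9.61, 9.42 and 9.25, a difference of 0.48 ± 0.12 (unadjusted p = 0.00493, adjusted p = 0.713). The others were the early pathway enzymes Hmgcs1 (0.43 ± 0.13) and Mvd (0.24 ± 0.09) and the sterol sensor gene Insig1 (0.40 ± 0.16). Fdft1, which commits the pathway to sterols, was at 0.31 ± 0.13 with overlap. The list mean of Irx3-/-;Irx5+/- replicate 1, at 9.27, lay within the range of Irx5-/- (9.18 to 9.30), and the other 3 arrays of its group lay between 8.95 and 8.99.

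Of the genes named by their p, the smallest values belonged to Aim2 and Fgd6, both lower in Irx5-/- hearts. Aim2, a sensor of cytosolic DNA, had log2 intensities of 7.96, 7.86 and 7.99 in Irx5-/- hearts, against 8.99, 8.61, 8.84 and 9.14 in Irx3-/-;Irx5+/- hearts. Its difference was -0.96 ± 0.13 (unadjusted p = 9.8e-05, adjusted p = 0.538). Fgd6 was at 7.73, 7.90 and 7.67 in Irx5-/- hearts, against 8.40, 8.43, 8.65 and 8.57, a difference of -0.74 ± 0.10. Ccdc3 was at 7.62, 8.76 and 8.31 in Irx5-/- hearts, against 9.48, 9.56, 9.48 and 9.63, a difference of -1.31 ± 0.24. The Irx3 null arrays lay close together there, and the Irx5-/- arrays spread below them.

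Kcnt2, a sodium-activated potassium channel gene, was at -0.97 ± 0.16, Slc24a4, a sodium, calcium and potassium exchanger gene, at -0.90 ± 0.17, and Gpr182, a receptor of endothelium, at -0.83 ± 0.16. Taok2, a kinase, was at -0.64 ± 0.11, Zfp398, a zinc finger gene, at -0.70 ± 0.13 and Pde7b, a cyclic AMP phosphodiesterase gene, at -0.57 ± 0.11. Npr3, Ecscr and Tie1 of the endothelial list complete the 12 lower genes with the smallest p. By size, Slc22a23 at -1.22 ± 0.26 and Cped1 at -1.13 ± 0.30 join Hba-x, Ccdc3 and Emcn as the 5 widest with separated groups. Itpr2, an inositol trisphosphate receptor, was the only separated member of the 16 calcium handling genes, at -0.65 ± 0.16, beside a background of 5.42%. Without the array labelled Irx5-/- replicate 2, 4 of the 16 were wholly lower (25% against 10.1%).

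On the higher side, Sdc2 (syndecan 2), a heparan sulphate proteoglycan of the cell surface, was at 9.79, 9.78 and 9.73 in Irx5-/- hearts, against 9.08, 9.24, 9.23 and 8.92 in Irx3-/-;Irx5+/- hearts. The difference was 0.65 ± 0.10 (unadjusted p = 0.000255, adjusted p = 0.538). Shcbp1, a protein of the division midbody, was at 9.70, 9.78 and 9.77 in Irx5-/- hearts, against 9.32, 9.18, 9.15 and 9.13, a difference of 0.55 ± 0.09. Mastl, the Greatwall kinase that opens mitosis, was at 8.93, 8.98 and 8.69 in Irx5-/- hearts, against 7.82, 8.09, 7.92 and 8.36, a difference of 0.82 ± 0.15. Shcbp1 and Mastl were not in the mitosis list. They were named for a small p on the higher side, so their direction adds nothing to that list.

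The other higher genes by p were Zfp709 (0.83 ± 0.14), Fam228b (0.57 ± 0.10), the acyl-CoA thioesterase Acot9 (0.68 ± 0.12), Zfp87 (0.64 ± 0.12), Apmap (0.86 ± 0.16), the chromatin factor Msl2 (0.60 ± 0.11), the methionine sulphoxide reductase Msrb1 (0.63 ± 0.12) and the RNA helicase Ddx56 (0.72 ± 0.14), with Tagln described above. By size among named genes with separated groups, Fv1, a retrovirus restriction gene, was widest at 1.65 ± 0.43, with 10.96, 9.39 and 9.95 in Irx5-/- hearts, against 8.05, 9.31, 7.93 and 8.53. Cwc22, a splicing factor gene with 8 probe sets of 2 distinct profiles, was at 1.22 ± 0.24, and 7 of its probe sets were wholly higher. Gem, a small GTPase gene, was at 1.07 ± 0.27, Scpep1, a carboxypeptidase gene, at 0.93 ± 0.23 and Usp51, a deubiquitinase gene, at 0.91 ± 0.19. Fv1 and Cwc22 are known to differ between inbred mouse strains, and the sources used here give no strain for these embryos.

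Sex differed between the groups by their arrays' own markers. The Y-linked gene Eif2s3y was at 10.05, 4.64 and 9.76 on the Irx5-/- arrays, against 9.83, 4.70, 4.43 and 4.58 on the Irx3-/-;Irx5+/- arrays, and Xist ran the opposite way. By these genes 2 of 3 Irx5-/- arrays and 1 of 4 Irx3-/-;Irx5+/- arrays had a male pattern. With the mean of the Y-linked genes as a term in the limma fit, 0 probe sets were called. The endothelial list's median was then -0.37 and that of G2 and mitosis 0.29, Npr3 was at -0.83 ± 0.15 and Bmp10 at -1.11 ± 0.35.

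In the remaining lists described here, at most 1 member was wholly separated in each direction. Ptch1, the hedgehog receptor and target, was wholly higher at 0.49 ± 0.18 (7.69% of 13 genes against 3.22%), with a list median of -0.11. In the 36 Wnt genes the median was 0.06, the antagonist Sfrp1 was at 0.39 ± 0.16 with overlap, Nkd2 was wholly higher at 0.26 ± 0.11 (2.78% against 3.22%), Wnt9b was wholly lower at -0.25 ± 0.11 (2.78% against 5.42%) and the ligand Wnt4 was at -0.27 ± 0.12 with overlap. In this list 10 genes were wholly higher without the array labelled Irx5-/- replicate 2 (27.8% against 7.74%). Of 17 connexin and intercalated disc genes Gja3 was wholly lower at -0.29 ± 0.10 (5.88% against 5.42%) and Vcl (vinculin) wholly higher at 0.34 ± 0.13 (5.88% against 3.22%). Aldh1a3, a retinoic acid synthesis gene, was wholly lower at -0.20 ± 0.09 (5.88% against 5.42%), and the median of 17 retinoic acid genes was -0.03. Immediate early genes varied within Irx5-/-, where Egr2 measured 10.98, 10.09 and 8.47, against 8.16, 9.06, 8.66 and 8.99 in Irx3 null hearts. Without Irx5-/- replicate 3, 7 of the 18 were wholly higher (38.9% against 7.14%), and none over all arrays. Klhl23 and Extl3, singled out by earlier results of these data, had overlapping groups here, Klhl23 at 0.25 ± 0.18 and Extl3 at 0.41 ± 0.19.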

How the data were processed

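The authors deposited 1 log2 intensity for each probe set and array. Per the file headers they were computed by RMA in the R package affy on all 14 arrays at once, a method that corrects background, applies quantile normalization and summarises probes. The sources used here give neither the versions of RMA and affy nor the genome build of the array annotation. The labels state that PicoPure was used for RNA isolation and that 1 ng went into the NuGEN WT-Ovation FFPE V2 and Encore Biotin protocols. Arrays have no read depth, and their number limits precision.

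Of 28763 probe sets, 21776 have exactly 1 gene symbol, 1592 several and 5395 none. Names were updated by gene ID through a RefSeq gene table (GRCm38.p6), which found 21685 and not 91 of them. For lists, the brightest of several probe sets was kept (998 genes), which left 19931 genes. The medians of the 7 arrays compared were 7.89 to 7.99, and their correlations 0.972 to 0.986.

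Values were used as deposited in limma 3.58.1 (R 4.3.3), with a mean per group and moderated variances, over the 7 arrays (5 residual and 2.99 prior degrees of freedom, median residual SD 0.174). Tests are 2-sided with Benjamini-Hochberg adjustment over all probe sets. Errors of a difference are SEs of the fit and errors of a mean are SDs. The procedure was run on simulated data with independent genes. That run cannot show how shifts shared by many genes on an array affect the values here. Lists are described by counts and medians, with no list test. Named are Irx1 to Irx6, the genes linked to Irx3 or Irx5, sex-linked genes, the 12 smallest p and 5 widest separated genes per direction, up to 3 members per list by p and its first 3, and 5 genes named in earlier results. Predicted genes, chemoreceptors and small RNAs are left out of names chosen by p or size. Other separated members of lists, Sox7 and the exceptions to a direction were named after their values were seen. Members and lists were chosen with earlier results of these data known.

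Alternatives were all 14 or 11 arrays in the fit, each array left out, a replicate block, 1 probe set per gene, a filter on dim probe sets, renewed quantile normalization, median centring, a trended robust prior, array weights, and the Y-linked or sarcomere mean as a term. Deviations of same-numbered arrays from their group means correlated at -0.14, -0.07 and 0.17, and those of differently numbered arrays at -0.35 to 0.29. Deviations from the mean of so few arrays are tied together, so these values cannot decide whether replicate numbers pair the arrays. Promoter sequences are RefSeq's.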

Additional observations from a re-analysis of the deposited data

Results flagged for a closer look

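In 132 genes and 43 list means, the 4 Irx3-/-;Irx5+/- arrays were searched for an array far from the other 3. Of these 175 groups 10 held such an array, and chance gives about 1 in 20. Groups of 3 were not searched.

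Irx3-/-;Irx5+/- replicate 1 lay apart in sex-linked genes, at 9.83 for Eif2s3y, 6.12 for Xist and 9.28 for the mean of the Y-linked genes, as the only array of its group with a male pattern. It was also apart in the trabecular list, with a mean of 9.25 against 8.95 to 8.98 on the others, and in the cholesterol list, with 9.27. Irx3-/-;Irx5+/- replicate 2 had the low Hbb-y value of 7.87 and the high Pf4 value of 10.69. Replicate 4 lay apart for Mvd at 8.52, for Ednrb at 12.20 and in the smooth muscle and pericyte list at 9.30, against 9.45 to 9.47. Its Mvd value was the nearest of its group to the Irx5-/- arrays, and its Ednrb value the farthest.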

How the results depend on the processing

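All 18 alternatives called 0 probe sets, with 944 to 1883 at an unadjusted p under 0.05. The smallest adjusted p was 0.0676, without Irx3-/-;Irx5+/- replicate 2. Of 2370 pairs of gene and alternative, over 132 genes, 2351 kept the direction and 19 turned, in 8 genes. Many of these genes were named for a small p or separated groups on these same arrays. A gene with separated groups cannot turn when a single array is left out, so this count does not measure stability. With single arrays left out, Irx4 ran from -0.23 to 0.44, Gja5 from -0.05 to 0.44, Gja1 from -0.23 to 0.49, Nppb from -0.42 to 1.07, Cd34 from -0.05 to 0.58, Sox17 from -0.05 to 0.15, Cldn5 from -0.07 to 0.11 and Myh6 from -0.36 to 0.17. Cldn5 was at -0.02 after renewed quantile normalization, -0.01 with array weights and 0.00 with the sarcomere term. Myh6 was at 0.04 with the replicate block and 0.06 with the Y-linked term. Wholly higher members numbered 7 to 12 for G2 and mitosis and 4 to 7 for cholesterol synthesis with single arrays left out, the highest without Irx3-/-;Irx5+/- replicate 1. Members with an unadjusted p under 0.05 then numbered 4 to 11 for G2 and mitosis, 2 to 7 for cholesterol synthesis and 13 to 20 for endothelial genes. For cholesterol synthesis they were 3 after renewed quantile normalization, 2 with the trended robust prior and 3 with the Y-linked term. The replicate block called 0 probe sets, had 944 at an unadjusted p under 0.05 and a smallest adjusted p of 0.93, and left 4 mitosis, 3 replication and 2 cholesterol genes at an unadjusted p under 0.05. With 5 residual degrees of freedom, the number of arrays limits every value here, and the causes of these shifts were not tested.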
